A study of Mus musculus with 10 samples.

Results

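Fc receptors are the proteins through which leukocytes bind the constant part of antibodies, and 7 genes that encode them or their signaling chain were followed here in day 4 melanomas. The members were chosen by name, as the rows of the count table whose Ensembl identifiers map to Fcgr1, Fcgr2b, Fcgr3, Fcgr4, Fcer1g, Fcgrt and Fcer2a in the mouse annotation, and all 7 were found among the 45706 genes listed. Bulk RNA came from tumors of Braf V600E-driven melanoma cells, grown in C57BL/6 hosts labelled as 8 weeks old and collected 4 days after implantation. In the WT_CTR group (n = 4, here Ptgs+/+) the tumor cells were COX-competent and the hosts untreated. In the KO_CTR group (n = 3, here Ptgs-/-) the tumor cells lacked Ptgs1 and Ptgs2, the genes of the cyclooxygenases COX-1 and COX-2, and the hosts were also untreated. In the KO_aNK group (n = 3, here Ptgs-/- from NK cell-depleted mice) the same cells grew in hosts given 200 µg of anti-NK1.1 (clone PK136) and 30 µg of antibody to asialo GM1 per mouse on days 0 and 2, as the labels give it. The study's methods describe another depletion schedule for its experiments in general. The labels call all other hosts untreated and name no control antibody, although the study's methods list control IgG among the antibodies of its depletion experiments. On these labels, antibody in the host and loss of NK cells cannot be told apart. All Ptgs-/- cells are a CRISPR/Cas9-edited line of 1 parental melanoma, and no host is labelled with a mutation. The sample titles also carry a code. It is EB042 for WT_CTR replicate 4 and KO_CTR replicate 3, and EB046 for all others, including every KO_aNK library.

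Background on the family helps to read the values. Activating receptors for IgG bind the antibody with an alpha chain of their own (Fcgr1, Fcgr3 and Fcgr4 in the mouse) and signal through a shared gamma chain, Fcer1g, which carries an immunoreceptor tyrosine-based activation motif (ITAM). Fcgr2b is the single inhibitory receptor of the family and recruits phosphatases instead. Fcgrt, the neonatal Fc receptor, pairs with B2m and protects IgG from breakdown inside cells, and Fcer2a (CD23) is the low-affinity IgE receptor, best known on B cells. Macrophages and monocytes carry all the activating receptors, while NK cells carry Fcgr3 with Fcer1g and lack the inhibitory receptor. Depleting antibodies themselves act in part through these receptors.

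In the GRCm38 build, 4 of the 7 genes lie near each other on chromosome 1: Fcgr2b (ENSMUSG00000026656) at chr1:170958617-170976547 on the minus strand, Fcgr4 (ENSMUSG00000059089) at chr1:171018920-171029761 on the plus strand, Fcgr3 (ENSMUSG00000059498) at chr1:171051174-171064935 on the minus strand and Fcer1g (ENSMUSG00000058715) at chr1:171229572-171234365 on the minus strand. Fcgr1 (ENSMUSG00000015947) lies at chr3:96282909-96293969, Fcgrt (ENSMUSG00000003420) at chr7:45092990-45103851 and Fcer2a (ENSMUSG00000005540) at chr8:3681737-3694175, all on the minus strand. All 7 are annotated as protein-coding. Libraries were made from the 3′ ends of transcripts, so each count is a tag near the transcript's end and does not scale with gene length. Of the 50-base words in the last 500 bases of the annotated protein-coding transcripts, none of Fcgr1, Fcgr3, Fcgr4, Fcer1g or Fcgrt occurred in a transcript of another gene. For Fcgr2b, 2.25% of them (33 of 1467) also occurred in Fcgr3, its close relative. For Fcer2a, 4.14% (39 of 942) also occurred in transcripts of more than 5 other genes. How reads mapping to more than 1 gene were counted is not given in the sources used here, so Fcgr2b and Fcer2a are uncertain to that extent.

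Promoter sequences are shown for the 2 alpha chains whose levels differed most between the tumors, Fcgr4 and Fcgr1, and for the inhibitory Fcgr2b as their counterpart. Each window runs from 250 bases before to 50 bases after the RefSeq transcription start (GRCm38.p6, 5′ to 3′ on the gene's own strand), and all 7 genes matched the promoter table. Capitals mark matches, on either strand, to 4 short motifs written from general knowledge. These were the interferon-gamma activated site (GAS), written as TTCNNNGAA, the core of the interferon-stimulated response element (ISRE), written as GAAA, any 2 bases and GAAA, an ETS-IRF composite, written as GGAA, any 2 bases and GAAA, and the PU.1 box, GAGGAA. The windows are chr1:171018676-171018975 (plus strand) for Fcgr4, chr3:96293920-96294219 (minus strand) for Fcgr1 and chr1:170976022-170976321 (minus strand) for Fcgr2b.
Fcgr4: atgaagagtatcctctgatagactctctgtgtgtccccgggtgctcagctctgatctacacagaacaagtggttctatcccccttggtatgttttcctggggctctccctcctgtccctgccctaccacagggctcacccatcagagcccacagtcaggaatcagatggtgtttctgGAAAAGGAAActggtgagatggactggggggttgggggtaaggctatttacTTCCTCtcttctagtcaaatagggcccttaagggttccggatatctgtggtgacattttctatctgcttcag
Fcgr1: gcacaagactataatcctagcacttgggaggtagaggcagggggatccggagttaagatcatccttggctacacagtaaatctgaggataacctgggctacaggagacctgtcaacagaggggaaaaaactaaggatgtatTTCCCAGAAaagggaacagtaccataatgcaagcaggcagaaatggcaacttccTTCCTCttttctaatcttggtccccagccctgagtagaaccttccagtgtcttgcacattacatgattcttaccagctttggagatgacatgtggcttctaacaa
Fcgr2b: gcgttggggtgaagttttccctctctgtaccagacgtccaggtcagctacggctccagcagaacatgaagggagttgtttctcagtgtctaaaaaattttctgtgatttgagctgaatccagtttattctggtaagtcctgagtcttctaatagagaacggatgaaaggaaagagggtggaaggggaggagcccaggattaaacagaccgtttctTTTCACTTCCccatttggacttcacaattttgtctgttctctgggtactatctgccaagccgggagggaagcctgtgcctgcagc

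The Fcgr4 window held the ISRE core at positions -73 to -64 from the start and a PU.1 box at -22 to -17. The Fcgr1 window held a GAS at -109 to -101 and a PU.1 box at -55 to -50. The Fcgr2b window held only the ETS-IRF composite, at -35 to -26. None of these matches overlapped another motif. Among the 32851 promoter windows of the table, 8.3% held the GAS, 3.44% the ISRE core, 2.72% the ETS-IRF composite and 28.3% the PU.1 box. The 2 windows of Fcgr3 held a PU.1 box, and those of Fcer1g, Fcgrt and Fcer2a held none of the 4 motifs. A match is a description of these letters and not evidence of binding.

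The 10 libraries held 8150556 to 12839174 counts, so a count of 3 in 1 library corresponds to 0.234 to 0.368 CPM (counts per 1000000 counts of the library). The checks of the labels are 3′ tags that do not show the edit itself. Ptgs2 was at 94.4 to 347 CPM in Ptgs+/+ tumors and at 27.0 to 74.8 CPM in the 6 Ptgs-/- libraries of both host groups, and Ptgs1 was at 128 to 169.9 CPM against 77.0 to 105 CPM. Ncr1, which encodes the NK cell receptor NKp46, had 7 to 12 counts per Ptgs+/+ library, 20 to 77 per Ptgs-/- library and 0 in the libraries of antibody-treated hosts. The Ptgs+/+ replicate 3 stood apart with the lowest Ptgs2 of its group, 94.4 CPM against 283 to 347 CPM. The defining melanocytic genes Pmel, Mlana, Tyr and Dct were at or near 0 in every group (group means of at most 0.588 CPM), and Mitf was at 21.7 to 28.9 CPM in the group means. The labels do not say whether the libraries came from separate animals, so the p-values measure the spread between these samples.

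Of the 6 members with enough counts to test, Fcgr3 and Fcer1g were the most abundant and Fcgr4 the least, in that order in all 3 groups. In Ptgs+/+ tumors the mean tag levels were 182 ± 23.8 CPM for Fcgr3, 170.2 ± 13.5 for Fcer1g, 109 ± 13.1 for Fcgrt, 71.4 ± 16.9 for Fcgr2b, 34.9 ± 6.44 for Fcgr1 and 20.1 ± 5.66 for Fcgr4 (SD, n = 4). The libraries of Fcgr3 and Fcer1g, the neighbours at the top of this order, overlapped in each of the 3 groups. Those of Fcgrt and Fcgr2b, and those of Fcgr1 and Fcgr4, overlapped only in Ptgs-/- tumors of untreated hosts. Summed over the 7 members, the level was 588 ± 51.6 CPM for Ptgs+/+ (n = 4), 1008 ± 238 CPM for Ptgs-/- in untreated hosts (n = 3) and 793 ± 98.5 CPM for Ptgs-/- in antibody-treated hosts (n = 3).

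**Figure D1:**
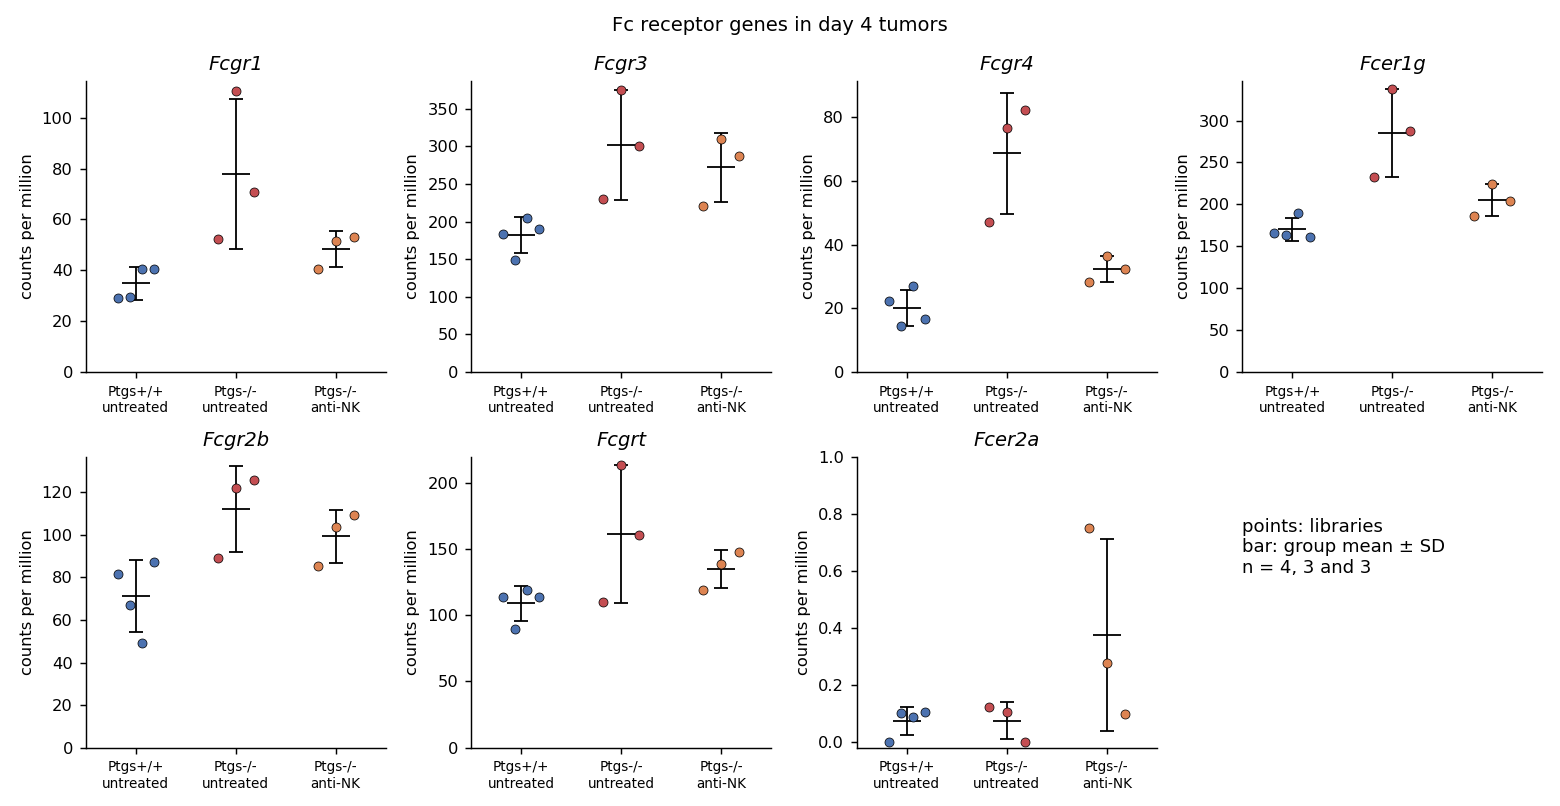
Level of each of the 7 genes in CPM on linear axes, with 1 point per library and the group mean ± SD. Fcgr4 separates all 3 groups, at 14.5 to 26.9, 47.0 to 82.3 and 28.2 to 36.5 CPM, while Fcer2a stays under 0.75 CPM in all libraries.

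The first comparison asked how the family differed between COX-deficient and COX-competent tumors of untreated hosts. 5 of the 6 tested members rose in Ptgs-/- tumors at a false discovery rate (FDR) of 0.05 or less and none fell, against 12.1% of all 14550 genes tested that were called higher. The median log2 fold change of the 6 was 0.68, and over all tested genes it was -0.01. With the study's own definition, which adds a log2 fold change of at least 1.5, Fcgr4 alone passed, against 3.14% of all genes called higher. In bulk tumors, more cells that express a gene and more RNA of it per cell cannot be told apart.

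Fcgr4, an activating receptor of intermediate affinity for IgG, changed most. It was at 22.4, 14.5, 26.9 and 16.5 CPM in the 4 Ptgs+/+ libraries and at 47.0, 76.7 and 82.3 CPM in the 3 Ptgs-/- libraries. Every Ptgs-/- library was above every Ptgs+/+ library. The log2 fold change was 1.71 ± 0.23 (SE), a 3.27-fold rise with a 95% interval of 2.31 to 4.61, with an edgeR quasi-likelihood adjusted p of 0.000535.

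Fcgr1, the high-affinity IgG receptor, was at 29.0, 29.7, 40.6 and 40.4 CPM in Ptgs+/+ tumors and at 52.4, 110.3 and 70.8 CPM in Ptgs-/- tumors. The groups did not overlap, and replicate 2 was the highest Ptgs-/- library. Its log2 fold change was 1.10 ± 0.23 (SE; edgeR adjusted p = 0.00514), a 2.15-fold rise.

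Fcgr3, the low-affinity activating receptor that NK cells share with myeloid cells, was at 183.5, 149, 205 and 190.7 CPM in Ptgs+/+ tumors and at 229.6, 375.5 and 300.5 CPM in Ptgs-/- tumors. Fcer1g, the shared gamma chain, was at 165, 163, 190.2 and 161.6 CPM against 232.5, 337 and 287 CPM. Neither gene's groups overlapped, and in both the lowest Ptgs-/- library was replicate 1 and the highest replicate 2. Their log2 fold changes were alike in size, 0.67 ± 0.17 (edgeR adjusted p = 0.0157) for Fcgr3 and 0.69 ± 0.13 (edgeR adjusted p = 0.00322) for Fcer1g.

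The inhibitory Fcgr2b was at 81.7, 67.2, 49.4 and 87.3 CPM in Ptgs+/+ tumors and at 89.2, 122 and 126 CPM in Ptgs-/- tumors. The groups were separated by a small gap, between 87.3 and 89.2 CPM. Its log2 fold change of 0.60 ± 0.18 had an edgeR adjusted p of 0.0351.

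Fcgrt, the neonatal Fc receptor, was at 113, 89.7, 119 and 114 CPM in Ptgs+/+ tumors and at 109.9, 213 and 160.7 CPM in Ptgs-/- tumors. Its groups overlapped and it did not pass (log2 fold change 0.51 ± 0.19, edgeR adjusted p = 0.069). With each library left out, the edgeR adjusted p ran from 0.00661 without Ptgs-/- replicate 1 to 0.318 without Ptgs-/- replicate 2, where the log2 fold change was 0.26. It was 0.141 within code EB046 of the labels, and DESeq2 gave an adjusted p of 0.0374. B2m, its light chain and also that of MHC class I, rose with a log2 fold change of 1.07 ± 0.14 (edgeR adjusted p = 0.000425). The ratio of B2m to Fcgrt counts was 11.3 to 11.6 in Ptgs+/+ libraries and 13.8 to 19.4 in Ptgs-/- libraries, with no overlap.

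Fcer2a was at or under 3 counts in 9 of the 10 libraries and was not tested. Its counts were 0, 1, 1 and 1 with Ptgs+/+ cells, 1, 1 and 0 with Ptgs-/- cells in untreated hosts, and 7, 3 and 1 in antibody-treated hosts. The library with 7 counts, replicate 1, also had the highest summed level of 8 B cell markers, 26.2 CPM against 5.96 to 20.4 CPM in the other 9 libraries, and their part in the count was not tested. Differences in Fcer2a were not detectable with these counts.

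Within the first code of the labels (EB046, 3 Ptgs+/+ and 2 Ptgs-/- libraries), the log2 fold changes were 1.52 for Fcgr4, 1.28 for Fcgr1, 0.74 for Fcgr3, 0.70 for Fcer1g and 0.65 for Fcgr2b, and 3 members passed, since Fcgr3 (edgeR adjusted p = 0.0541) and Fcgr2b (edgeR adjusted p = 0.0714) then missed the threshold. Without Ptgs-/- replicate 2 the count was also 3, with an edgeR adjusted p of 0.0716 for Fcgr3 and 0.125 for Fcgr2b. Fcgr2b moreover missed the threshold when only the compared groups were fitted (edgeR adjusted p = 0.0636) and without Ptgs+/+ replicate 2, Ptgs-/- replicate 3 or the antibody-treated replicate 2 (edgeR adjusted p of 0.0833, 0.0994 and 0.0513).

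**Figure D2:**
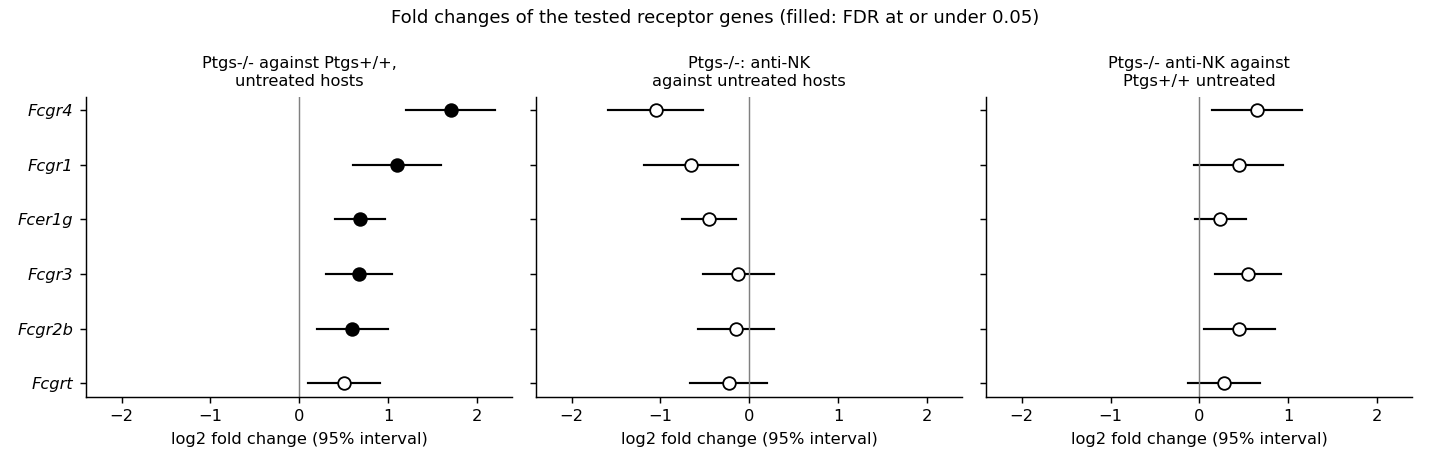
Log2 fold change (point) and 95% interval (line) of the 6 tested genes in the 3 comparisons, with filled points at an FDR of 0.05 or less. In Ptgs-/- against Ptgs+/+ tumors 5 of 6 points are filled, led by Fcgr4 at 1.71, and in the other panels none is.

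The second comparison set Ptgs-/- tumors of antibody-treated, NK cell-depleted hosts against Ptgs-/- tumors of untreated hosts. All 6 tested members had a log2 fold change below 0 but none passed an FDR of 0.05 in edgeR, against 1.44% of all tested genes called in either direction. At an unadjusted p under 0.05 there were 3 of the 6, Fcgr4, Fcgr1 and Fcer1g, against 11.2% of all tested genes, and DESeq2 called 1, Fcgr4, against 2.63% of all genes. This comparison shares the Ptgs-/- libraries of untreated hosts with the first.

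Fcgr4 was at 28.2, 36.5 and 32.4 CPM in antibody-treated hosts, against 47.0, 76.7 and 82.3 CPM in untreated hosts. The groups did not overlap, and all 3 values also lay above the highest Ptgs+/+ library, at 26.9 CPM. The log2 fold change was -1.06 ± 0.24 (SE; interval -1.59 to -0.52) with an edgeR adjusted p of 0.0671. The call depended on the setting, with an adjusted p of 0.00209 in DESeq2, 0.0133 without Ptgs-/- replicate 1, 0.0326 without Ptgs+/+ replicate 3 and 0.224 within code EB046. With each library left out, 8 of 10 fits did not pass, with an edgeR adjusted p of up to 0.288.

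Fcgr1 was at 40.3, 51.6 and 53.2 CPM in antibody-treated hosts, of which only the highest reached above the lowest library of untreated hosts, at 52.4 CPM. Its log2 fold change was -0.66 ± 0.24 (edgeR adjusted p = 0.314). Fcer1g was at 186, 225 and 204 CPM, below all 3 libraries of untreated hosts, with a log2 fold change of -0.45 ± 0.14 (edgeR adjusted p = 0.209). With each library left out, its edgeR adjusted p ran from 0.0429 without Ptgs-/- replicate 1 to 0.626, and 9 of 10 fits did not pass.

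The remaining members overlapped between the host groups. Fcgr3, which NK cells themselves express, was at 220.4, 309 and 287 CPM in antibody-treated hosts, with a log2 fold change of -0.12 ± 0.18 (interval -0.52 to 0.28; edgeR adjusted p = 0.847). Fcgr2b was at 85.5, 103.5 and 109.4 CPM (-0.15 ± 0.20; edgeR adjusted p = 0.821), and Fcgrt at 119, 139 and 147 CPM (-0.23 ± 0.20; edgeR adjusted p = 0.728). The lower end of the interval for Fcgr3 was 0.695 times the level in untreated hosts.

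Markers of several other cell types moved along with the host treatment. All 9 tested NK cell markers passed as lower in antibody-treated hosts, where 75 of all 14550 tested genes were called lower and 134 higher. The summed level of 10 NK cell markers was 117 to 249 CPM in Ptgs-/- tumors of untreated hosts and 13.2 to 13.9 CPM in antibody-treated hosts, where Ncr1 and Prf1 were at 0. Of 8 monocyte markers 1 passed as lower, Ly6c2 (log2 fold change -1.16 ± 0.24, edgeR adjusted p = 0.0378), and of 6 tested T cell markers Lck did (-2.13 ± 0.32, edgeR adjusted p = 0.00599). The other tested T cell markers were also below 0 but did not pass. Among them were Cd3e (-1.31 ± 0.63, edgeR adjusted p = 0.483) and Cd3d (-1.36 ± 0.42, edgeR adjusted p = 0.208). Of 8 tested neutrophil markers 2 passed as higher, S100a8 and S100a9. In direction, 6 of the 8 were above 0 and 2, Il1r2 and Csf3r, below 0. None of 12 macrophage markers passed, and their sums of 4585 to 7004 CPM in untreated and 4439 to 4740 CPM in antibody-treated hosts overlapped. The sum of 8 skeletal muscle genes was 114 to 383 CPM against 2389 to 5665 CPM, and 8 of 8 passed the test as higher in antibody-treated hosts. The part of these cell types in the receptor levels was not tested.

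In the third comparison, Ptgs-/- tumors of antibody-treated hosts were set against Ptgs+/+ tumors, with libraries shared with both others. All 6 members had a log2 fold change above 0 and none passed in edgeR, against 12.5% of all tested genes called in either direction. There were 3 at an unadjusted p under 0.05, against 27% of all tested genes, and DESeq2 called 2, Fcgr3 and Fcgr4, against 15.7% of all genes. The largest were Fcgr4 with 0.65 ± 0.23 (edgeR adjusted p = 0.0899) and Fcgr3 with 0.55 ± 0.17 (edgeR adjusted p = 0.0583). The groups of both did not overlap, nor did those of Fcgrt, at 119.2 to 147.4 CPM against 89.7 to 118.9 CPM. How many of all genes had groups apart was not counted. Fcgr2b (0.45 ± 0.18), Fcgr1 (0.44 ± 0.23), Fcgrt (0.28 ± 0.19) and Fcer1g (0.24 ± 0.13) had edgeR adjusted p-values of 0.138 to 0.378. Fcgr3 passed without Ptgs+/+ replicate 3, Ptgs-/- replicate 1 or 2, or antibody-treated replicate 1 (edgeR adjusted p of 0.0444, 0.0297, 0.0329 and 0.0493), and Fcgr4 passed without Ptgs+/+ replicate 3 or Ptgs-/- replicate 1 (edgeR adjusted p of 0.0303 and 0.0463). With each library left out, Fcgr3 did not pass in 6 of 10 fits and Fcgr4 in 8 of 10, with edgeR adjusted p of up to 0.207 and 0.257.

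The activating receptors were also set against each other within a library. Of the summed counts of Fcgr1, Fcgr3 and Fcgr4, Fcgr4 took 8.40 ± 1.56% with Ptgs+/+ cells, 15.4 ± 2.44% with Ptgs-/- cells in untreated hosts and 9.22 ± 0.538% with Ptgs-/- cells in antibody-treated hosts (SD, n = 4, 3 and 3). Each Ptgs-/- library of untreated hosts (14.3, 13.6 and 18.2%) was above all other libraries, whose highest value was 9.88%. Fcgr3 took 76.9 ± 1.19%, 67.6 ± 1.91% and 77.0 ± 0.78%, and was lower in each Ptgs-/- library of untreated hosts than in all others. Fcgr1 took 14.7 ± 1.69%, 17.0 ± 2.22% and 13.8 ± 0.688%, and only its last 2 groups did not overlap. These shares were added after the counts had been seen and carry no test.

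**Figure D3:**
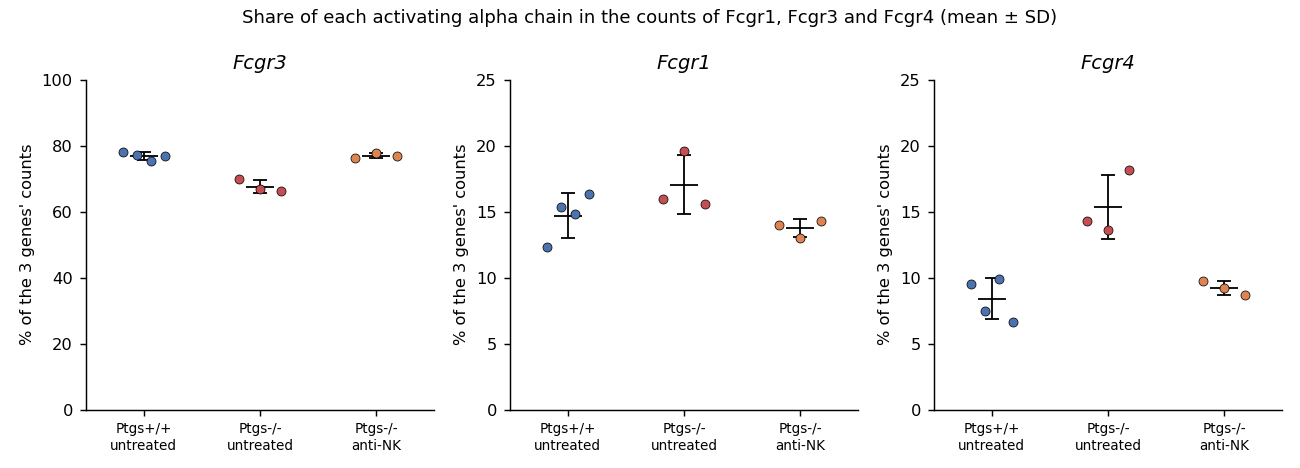
Share of each activating alpha chain in the summed counts of Fcgr1, Fcgr3 and Fcgr4, in percent, with 1 point per library and the group mean ± SD (the Fcgr3 axis runs to 100%, the others to 25%). Fcgr4 sits at 13.6 to 18.2% in Ptgs-/- tumors of untreated hosts and at 6.68 to 9.88% in the other 7 libraries.

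The shared gamma chain was also set against the summed alpha chains, with no test. Fcer1g had 0.725 ± 0.0828 tags for each tag of the 3 alpha chains with Ptgs+/+ cells, 0.646 ± 0.0549 with Ptgs-/- cells in untreated hosts and 0.586 ± 0.0505 in antibody-treated hosts. The ranges of neighbouring groups overlapped, and only the first and the last group were apart, at 0.653 to 0.844 and 0.549 to 0.644.

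The balance of activating to inhibitory receptors was compared within each library as the log2 ratio of counts to Fcgr2b, which needs no scaling between libraries. With 3 libraries against 4 a two-sided exact permutation test cannot go below 0.0571, and with 3 against 3 not below 0.1, so none of the 9 tests could pass. Fcgr4 over Fcgr2b was 0.275, 0.217, 0.546 and 0.190 in the Ptgs+/+ libraries, 0.527, 0.629 and 0.654 in the Ptgs-/- libraries and 0.331, 0.353 and 0.296 in the antibody-treated hosts. The Ptgs+/+ library at 0.546 was replicate 3, the one with the lowest Ptgs2, and it alone overlapped the Ptgs-/- libraries. Its mean was 1.10 higher on the log2 scale without than with COX in the tumor cells (exact permutation p = 0.114, adjusted 0.343) and 1.42 higher without that library. It was 0.88 lower in antibody-treated hosts than in untreated hosts, with no overlap (exact permutation p = 0.1, the smallest possible, adjusted 0.343).

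Fcgr1 over Fcgr2b was also lower in antibody-treated than in untreated hosts with Ptgs-/- tumors, at 0.472 to 0.498 against 0.562 to 0.904 (log2 difference -0.46, exact permutation p = 0.1, adjusted 0.343). Between Ptgs-/- and Ptgs+/+ tumors it overlapped (log2 difference 0.44, exact permutation p = 0.286, adjusted 0.643). Fcgr3 over Fcgr2b was 2.59, 2.66 and 2.72 in the geometric means of the 3 groups, and its log2 differences of 0.03 to 0.07 were below the SD within the groups, which was 0.12 to 0.45.

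**Figure D4:**
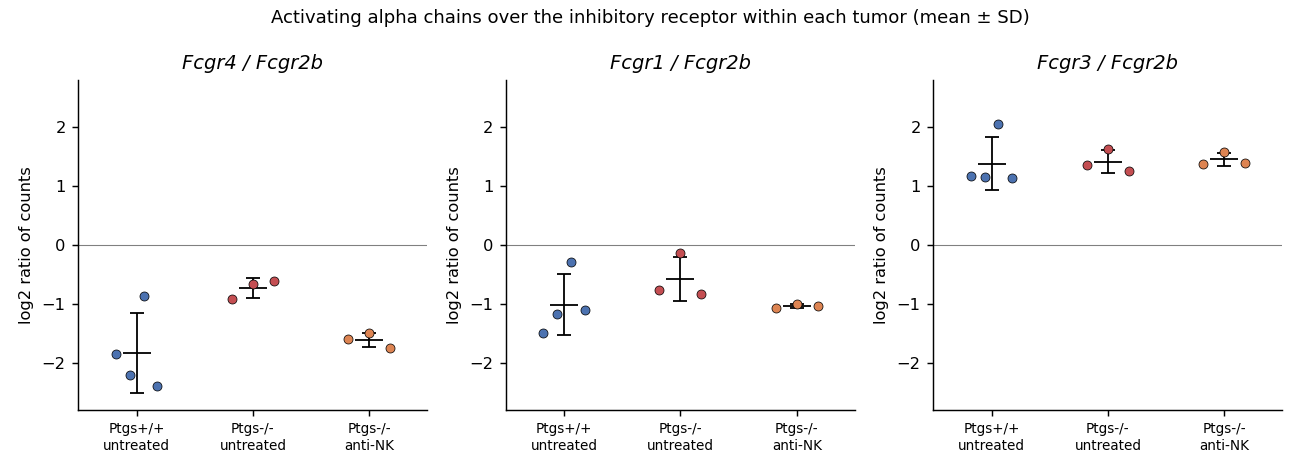
Log2 ratio of the counts of Fcgr4, Fcgr1 and Fcgr3 to those of Fcgr2b, with 1 point per library and the group mean ± SD. Fcgr4 over Fcgr2b lies at -0.92 to -0.61 in Ptgs-/- tumors of untreated hosts and at -1.75 to -1.50 in antibody-treated hosts, while Fcgr3 over Fcgr2b overlaps in all groups.

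The macrophage markers moved with the receptors in the first comparison. Of 12 macrophage markers, 9 rose in Ptgs-/- against Ptgs+/+ tumors and none passed as lower, against 12.1% of all tested genes called higher. Their median log2 fold change was 0.73. Their summed level was 2848 to 3457 CPM in Ptgs+/+ tumors against 4585 to 7004 CPM, led by Apoe, C1qa and Maf. Over that sum, the log2 ratio of Fcgr4 was 0.95 higher in COX-deficient than in COX-competent tumors, with no overlap (-6.61 to -6.14 against -7.62 to -7.00). That of Fcgr1 was 0.28 higher with overlapping groups. Those of Fcgr3, Fcgr2b and Fcer1g differed by -0.11, -0.15 and -0.09, with overlapping groups, and that of Fcgrt by -0.30 without overlap. In antibody-treated against untreated hosts the ratios of Fcgr4, Fcgr1 and Fcer1g were lower by 0.74, 0.32 and 0.16, each with no overlap, and those of Fcgr3, Fcgr2b and Fcgrt were 0.17, 0.14 and 0.10 higher with overlapping groups. These ratios were added after the counts had been seen and carry no test, and the part of cell numbers in them was not tested.

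Markers of other leukocytes moved in the same comparison of Ptgs-/- with Ptgs+/+ tumors, in which 12.1% of all tested genes were called higher. Of 8 monocyte markers 5 rose, led by Ly6c2 (2.19 ± 0.23), Ccr2 (1.75 ± 0.18) and Plac8 (1.55 ± 0.25), and 1, Hp, fell. Their median log2 fold change was 0.89, and their summed levels of 1973 to 3365 CPM and 2713 to 3366 CPM overlapped. Hp, the marker that fell, had a mean of 1254 CPM within that sum in Ptgs+/+ tumors and 276 CPM in Ptgs-/- tumors. Of 9 tested NK cell markers 8 rose (median 2.29), with sums of 22.2 to 49.7 CPM against 117 to 249 CPM. All 6 tested T cell markers rose (median 2.54), with sums of 7.94 to 10.5 CPM against 24.9 to 68.5 CPM. Of 8 dendritic cell markers 4 rose, and none of 8 mast cell markers passed. The part of these cells in the receptor levels was not tested.

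Neutrophils also carry Fcgr3 and Fcgr4. The sum of 10 neutrophil markers was 433 to 674 CPM with Ptgs+/+ cells, 109.8 to 164 CPM with Ptgs-/- cells in untreated hosts and 175 to 232 CPM in antibody-treated hosts. Of 8 tested markers 5 fell in Ptgs-/- against Ptgs+/+ tumors, led by Mmp9, which fell by 3.17 on the log2 scale, while Csf3r (0.61 ± 0.27) did not pass. Over all tested genes, 1597 of 14550 were called lower in that comparison. Ly6g, a defining marker, was at or near 0 throughout, with 6, 0 and 1 counts summed over the libraries of the 3 groups, and was not tested. The part of neutrophils in the receptor levels was not tested.

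The machinery downstream of the receptors was followed with lists of genes written from general knowledge. Of 17 tested genes of ITAM signaling, 15 rose in Ptgs-/- against Ptgs+/+ tumors and none fell, against 12.1% of all tested genes called higher. Their median log2 fold change was 0.86. The largest were Lat, an adaptor of T and mast cells (2.39 ± 0.39), Cd247, the zeta chain of T cell receptors (2.22 ± 0.47), and Rac2, a GTPase of phagocytes (1.41 ± 0.16). The T and NK cell markers moved in the same comparison with medians of 2.54 and 2.29, and their part in Lat and Cd247 was not tested. Syk, the kinase that binds phosphorylated ITAMs, rose by 0.69 ± 0.14 on the log2 scale, and the kinases Lyn, Fgr and Fyn rose by 0.43 to 0.75. In antibody-treated against untreated hosts none of the 17 passed in edgeR, with 16 below 0 and 10 at an unadjusted p under 0.05, against 11.2% of all tested genes. Against Ptgs+/+ tumors 5 of 17 passed as higher in antibody-treated hosts, against 964 of all 14550 tested genes. The largest were Lat (1.43 ± 0.41), Prkcd (1.02 ± 0.13) and Pik3cd (0.77 ± 0.16).

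The NADPH oxidase, the enzyme of the phagocyte's oxidative burst, rose in all 5 of its listed subunits in Ptgs-/- against Ptgs+/+ tumors. Of all tested genes, 12.1% were called higher there. Cybb, its catalytic subunit, had a mean of 67 CPM with Ptgs+/+ cells, 269 CPM with Ptgs-/- cells and 182 CPM in antibody-treated hosts. Its log2 fold change was 1.94 ± 0.16 (edgeR adjusted p = 3.63e-05), above that of Ncf1 (1.02 ± 0.17) and Cyba (0.84 ± 0.15). None of the 5 passed between the host groups, with 3 at an unadjusted p under 0.05, against 11.2% of all tested genes. Cybb alone passed between antibody-treated hosts and Ptgs+/+ tumors (1.41 ± 0.16), where 964 of all 14550 tested genes were called higher.

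Of 7 genes of inhibitory signaling, the arm that Fcgr2b recruits, 4 rose and 1 fell in Ptgs-/- against Ptgs+/+ tumors. Over all tested genes 12.1% were called higher, and 1597 of 14550 lower. Dok2 (1.22 ± 0.19), the phosphatase Ptpn6 (1.08 ± 0.15) and the lipid phosphatase Inpp5d (0.54 ± 0.15), the main partner of Fcgr2b, rose, and its relative Inppl1 fell by 0.52 on the log2 scale. None passed between the host groups, with 1 at an unadjusted p under 0.05, against 11.2% of all tested genes. Dok2 (0.83 ± 0.19) and Ptpn6 (0.64 ± 0.15) were higher and Inppl1 (-0.56 ± 0.10) lower in antibody-treated hosts than in Ptgs+/+ tumors. Over all tested genes, 12.5% were called in either direction there.

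**Figure D5:**
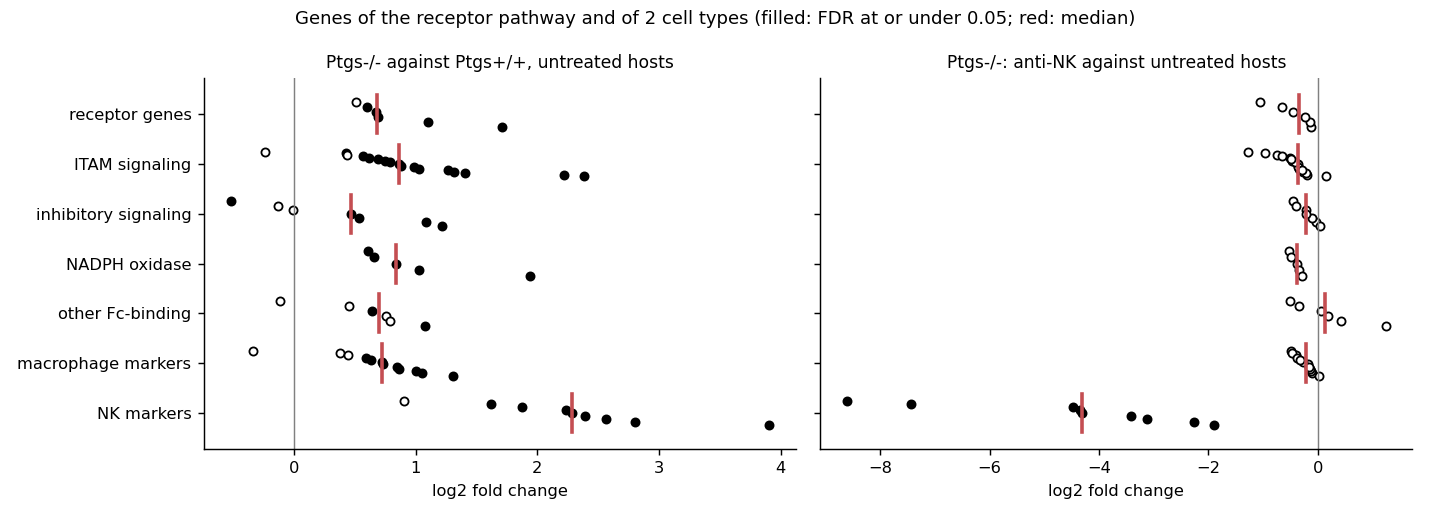
Log2 fold change of each tested gene (point; filled at an FDR of 0.05 or less) and median (red line) of the receptor genes, the lists of their pathway, and the macrophage and NK cell markers, in 2 comparisons. The pathway lists shift to the right in Ptgs-/- against Ptgs+/+ tumors, with medians of 0.47 to 0.86, and no receptor, pathway or macrophage gene is filled in the comparison of host groups, where 9 of 9 NK cell markers are.

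Among 11 other Fc-binding genes, 6 had enough counts to test and 2 rose in Ptgs-/- against Ptgs+/+ tumors, against 12.1% of all tested genes called higher. The 2 that rose were Trim21, the cytosolic antibody receptor (1.08 ± 0.22), and the Fc receptor-like Fcrls (0.64 ± 0.17). Fcer1a and Ms4a2, the other chains of the mast cell IgE receptor that uses Fcer1g, stayed under 3.1 CPM in all libraries and did not pass, with group means of 1.13 to 2.66 CPM and 0.676 to 1.19 CPM. Of 12 immunoglobulin genes, Ighm rose in Ptgs-/- against Ptgs+/+ tumors (2.20 ± 0.30), from 15.3 to 73.9 CPM in the group means, and was at 61.2 CPM in antibody-treated hosts. The heavy chain genes of IgG were each under 1.3 CPM in every library except Ighg2b, which reached 18.6 CPM in 1 library of antibody-treated hosts. RNA counts do not show the injected antibody.

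The genes whose pattern over the 10 libraries came closest to that of each member were listed by the root mean square difference of centred log2 CPM. For Fcgr4 they were Batf2 (0.15), Ifi209 (0.19) and Il10 (0.19), against an SD of 0.77 for Fcgr4 itself. For Fcgr1 they were Dtx3l (0.14), Psmb10 (0.15) and Rtp4 (0.15), against an SD of 0.52. For Fcer1g they were Arrb2 (0.06), Tle4 (0.07) and Slc25a45 (0.08), for Fcgr3 Ucp2 (0.08), Nrros (0.09) and Agtrap (0.11), and for Fcgr2b Ctsc (0.10), Cbx7 (0.12) and Cst3 (0.12). The 5 members named no gene in common. A small difference says only that 2 genes moved alike in these libraries, which share their groups.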

How the data were processed

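The authors prepared QuantSeq 3′ FWD libraries from 500 ng of bulk tumor RNA, removed the first 12 bases of each read, used STAR for alignment to GRCm38, and used featureCounts with the Ensembl version 86 annotation. The deposited values are raw counts, unnormalized, in 1 column for each sample. Strand, multi-mapping and molecular identifier settings are not given in the sources used here. Genes were named with GENCODE M21 (45143 of 45706 identifiers). Counts were analysed with edgeR 4.0.16 in R 4.3.3: filterByExpr (14550 genes kept), TMM factors, and quasi-likelihood tests of 3 comparisons in 1 model of all 10 libraries, with Benjamini-Hochberg adjustment over all tested genes. CPM in the text are counts over library totals. The procedure was tested on simulated data. Alternatives included DESeq2 1.42.0, a likelihood ratio test, other filters, scalings and sample sets, the label code, a replicate block, and each library left out. Log2 ratios had 0.5 added to each count. The members, gene lists and tests were chosen with earlier results of these data known. Named beside the members are the up to 3 largest changes past the threshold per pathway list and comparison, the 3 nearest genes per called member, and Ptgs1, Ptgs2 and Ncr1; Syk, Lyn, Fgr, Fyn, Fcer1a, Ms4a2, Ighg2b and the markers were named after their values were seen. Replicate libraries differed beyond counting noise (chi-square per degree of freedom of 7.41 to 30.1).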

Additional observations from a re-analysis of the deposited data

Results flagged for a closer look

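In the 4 Ptgs+/+ libraries, a sample was marked where its gap to the nearest of the others exceeded Dixon's 95% critical value as a share of the group's range. Chance gives this for about 1 in 20 independent, normally spread quantities. That rate does not hold exactly here, since the ratios share genes with the levels and Fcer2a had only counts of 0 and 1. Of 10 quantities examined 3 were marked. The log2 ratio of Fcgr3 over Fcgr2b was 2.05 in replicate 3, against 1.13 to 1.17 in the others. Fcer1g was at 190.2 CPM in the same replicate, against 161.6 to 165 CPM. Fcer2a was at 0 CPM in replicate 1, a count of 0 where the others had a count of 1. Replicate 3 also had the lowest Ptgs2, at 94.4 CPM, and the lowest summed neutrophil markers of its group, at 433 CPM.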

How the results depend on the processing

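Of 480 recomputed values, 415 were classed as the same. For a fold change this meant the same direction and side of the threshold, and for a ratio the same direction alone. For a count of members it meant a count within 1.5 times the main one, or also 0 where that was 0. Between Ptgs-/- and Ptgs+/+ tumors the count of members past the threshold was 5, with 3 within code EB046, 1 under the study's fold rule and 3 to 6 with each library left out. Between the host groups it was 0, with 1 under DESeq2, the likelihood ratio test and no filter, and 0 to 2 with each library left out. Between antibody-treated hosts and Ptgs+/+ tumors it was 0, with 2 under DESeq2, the likelihood ratio test and no filter, 1 under library size alone and with only the compared groups, and 0 to 2 with each library left out. With the label number as a replicate block the counts were 5, 0 and 1, the last from Fcgr3 (edgeR adjusted p = 0.0444). Same-numbered libraries had correlations of their deviations between -0.244 and 0.355, so the numbers were not taken to pair the samples, and the block changed no other call of a member. The values below changed sign in at least 1 of these settings. With each library left out, between the host groups Fcgr3 ranged from -0.28 to 0.058 (without Ptgs-/- replicate 2; 0.00634 without antibody-treated replicate 1) and Fcgrt from -0.44 to 0.0183. The log2 ratio of Fcgr1 over Fcgr2b ranged from -0.18 to 0.22 between antibody-treated hosts and Ptgs+/+ tumors. That of Fcgr3 over Fcgr2b ranged from -0.0663 to 0.26, from -0.048 to 0.14 and from -0.0125 to 0.30 in the 3 comparisons, and was -0.048 and -0.0125 within EB046 in the last 2. Other values kept their sign. Fcgr4 between Ptgs-/- and Ptgs+/+ tumors ranged from 1.59 to 1.91 with each library left out and passed each time. The log2 ratio of Fcgr4 over Fcgr2b ranged from 0.91 to 1.42, -0.98 to -0.81 and 0.03 to 0.54, and that of Fcgr1 over Fcgr2b from 0.22 to 0.68 and -0.59 to -0.24 in the first 2. Over all genes, DESeq2 called 383 between the host groups against 209 in edgeR (174 higher and 209 lower against 134 and 75), the likelihood ratio test 403, no filter 408, a minimum of 10 counts in every library 42 and code EB046 alone 93. Code EB046 alone called 2222 genes between Ptgs-/- and Ptgs+/+ tumors against 3360. With 1 library left out, counts over all genes moved by over 1.5 times to 2062 in the first comparison (without Ptgs-/- replicate 2). Between the host groups they moved to 411 without Ptgs-/- replicate 1 (154 higher and 257 lower), 106 and 117 without its replicates 2 and 3, and 131 and 121 without antibody-treated replicates 2 and 3. In the third comparison, against 1818, they moved to 1057, 1121 and 909 without antibody-treated replicates 1, 2 and 3 and to 1187 without Ptgs+/+ replicate 2. The cause of these shifts was not tested. Too few counts left Fcer2a, 5 of 11 other Fc-binding genes and 8 of 12 immunoglobulin genes untested.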
